A study of Rattus norvegicus with 10 samples.

Results

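A block of rat chromosome 9 was described region by region, from position 105000000 to position 107500000 of the RN4 assembly. Its members were the regions of the deposited matrix that lie wholly within these bounds, 1073 of the 716492 regions in all. The bounds were drawn around regions that were already known to differ between rats with traumatic brain injury (TBI) and sham-operated rats. All differences between TBI and sham rats inside the block are therefore given as a description, and no test of them supports a statement. Of the 1073 members, 730 (68.0%) passed the filter on low tag sums, which keeps regions with at least 117 tags over the 10 rats, and 343 did not.

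DNA methylation in mammals is found mostly on the cytosine of CpG dinucleotides, where methyl-binding proteins recognize it. Proteins of this kind can be used to capture methylated fragments from sheared DNA, which are then sequenced. The number of read tags in a region rises with its methylation, and it also depends on the density of CpG sites and on how well the fragments were captured.

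The rats were adult males of the outbred Sprague-Dawley strain, in which animals differ in sequence. In the TBI group (5 rats) a pressure pulse was delivered onto the intact dura over the left parietal lobe, a model known as lateral fluid percussion. The sham group (5 rats) was anesthetized and operated on in the same way, without the pulse. At 3 months after surgery, tissue with the CA3 field and the dentate gyrus was taken from the left hippocampus, labelled as dorsal hippocampus, and each rat gave 1 library. Sham rats 1 to 5 are numbered as in the labels, and TBI rats 1 to 5 are the rats labelled 6 to 10. Whether each TBI rat had developed epilepsy is not given in the labels, and dissected tissue mixes neurons with other cells, so that a change in cell mixture and a change in methylation within cells cannot be told apart. Gene annotation and sequence of the RN4 assembly were not used here, and regions are identified by position.

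Libraries held between 13597924 and 21672940 tags, of which 31863 to 51059 fell within the block. One library, that of sham rat 5, stood apart from the other 9. It had no tag in 2 of the 1073 members, whereas each other rat lacked tags in between 32 and 91. Across the 730 tested regions the mean r of its log2 CPM values with the other rats was 0.723, compared with 0.866 to 0.897 for the other 9 (CPM, the tags of a region relative to the scaled size of the library). This was not particular to the block. On the rest of chromosome 9 the mean r of sham rat 5 was 0.672, compared with 0.827 to 0.869 for the other 9. These correlations are over regions, which are not replicates. Values are therefore given with all 10 rats and again without sham rat 5.

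The block was rich in regions of the matrix, which lists places where libraries differed, so their density is not a measure of capture or methylation. It held 429 regions per Mb, compared with 296 per Mb on the rest of chromosome 9, and the members had a median length of 706 bp, compared with 572 bp. The stretch of equal size just below it was similar, with 1054 regions, of which 717 were tested. The stretch of equal size just above held 867, of which 447 were tested. The 3 strongest members lay in the lower part of the block and were long. The first, at chr9:105495161-105498374, had 27.2 ± 7.11 CPM in the sham group (SD, n = 5) and 30.6 ± 1.72 CPM in the TBI group (SD, n = 5). The second, at chr9:105805713-105811419, spanned 5706 bp and had 25.7 ± 5.12 CPM in sham and 25.9 ± 1.32 CPM after TBI. The third, at chr9:105452825-105457029, had 24.4 ± 3.21 CPM in sham and 25.3 ± 2.44 CPM after TBI. In all 3 regions sham rat 5 had the lowest value of the 10 rats, at 18.2, 17.2 and 19.9 CPM, and the log2 difference between groups was no larger than 0.17 ± 0.17 (SE).

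Regions were called where the unadjusted p of a quasi-likelihood test in edgeR was under 0.01, in a fit across all tested regions of the genome, the threshold used in the study. In the block, 9 of 730 regions (1.23%) were called, where 0.266% of all tested regions were called. Of these, 3 were higher in TBI rats (0.098% of all tested regions) and 6 were lower (0.168% of all tested regions). Since the block was chosen on this contrast, nothing is read from these shares. None of the 730 regions had an adjusted p under 0.05 by this test (Benjamini-Hochberg), and 33 had an unadjusted p under 0.05 (2.45% of all tested regions did). Under the exact test and the likelihood ratio test of edgeR 1 region of the block had an adjusted p under 0.05, where 4 of all tested regions did under each test. By the Wald test of DESeq2 0 regions did, both in the block and over all tested regions.

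Without sham rat 5, 14 of 729 regions were called (1.92%), where 0.792% of all tested regions were called. Higher and lower regions then stood at 8 (0.397% of all tested regions) and 6 (0.396% of all tested regions). From the 9 regions of the full set of rats, 8 were called again, each in the same direction, and 6 more were called only without this rat. With sham rat 5 left out, 1 region, at chr9:105891377-105892969, had an adjusted p under 0.05 (adjusted p = 0.0191 by the same test), where 14 of all 358615 tested regions did (0.0039%). An unadjusted p under 0.05 was found for 36 regions of the block, where 4.59% of all tested regions had one.

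In both sets of rats the called regions spanned the same 1041 kb, from 105415276 to 106456752. The 46 tested regions below this span and the 341 above it held no called region in either set. Over all tested regions 0.266% were called with all rats and 0.792% without sham rat 5, so nothing is read from this absence. In the stretches of 2.5 Mb below and above the block, 2 of 717 and 1 of 447 regions were called with all rats, and 7 and 3 without sham rat 5. These were 0.279% and 0.224%, or 0.976% and 0.665% without sham rat 5, near the shares over all tested regions. The bounds were drawn around regions known to differ, so fewer calls outside them follow from the choice. Higher and lower regions were interleaved. Numbered 1 to 9 along the chromosome, regions 2, 4 and 8 were higher in TBI rats, and regions 1, 3, 5, 6, 7 and 9 were lower.

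**Figure D1:**
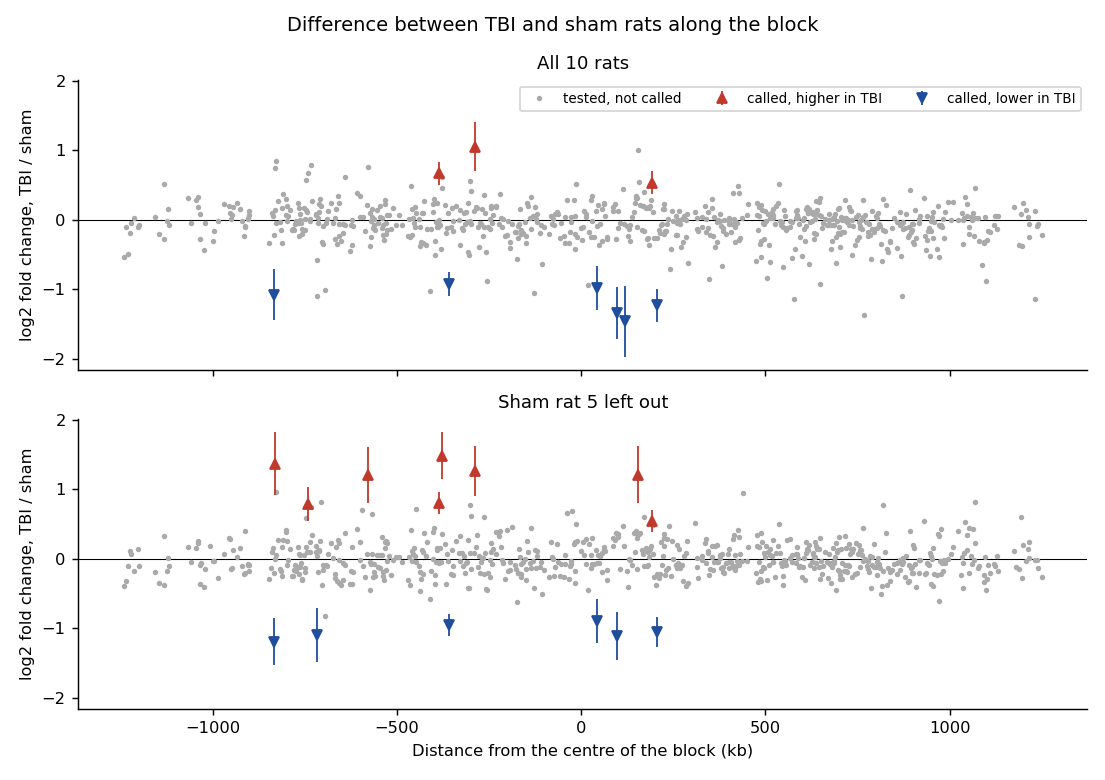
Log2 fold change of TBI over sham rats (vertical axis) for each tested region against its distance from the centre of the block in kb, with all 10 rats (top) and without sham rat 5 (bottom). Grey points are regions that were not called, triangles are called regions with bars of 1 SE, with 3 higher and 6 lower regions at the top and 8 higher and 6 lower regions at the bottom, all left of or near the centre and none in the upper part.

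Small differences in both directions were mixed along the whole block. The median log2 fold change of its 730 tested regions was -0.04, beside -0.02 over all tested regions, and 42.6% of the block's regions were above 0, beside 46.5%. Without sham rat 5 the medians were -0.03 and 0.00, and the shares above 0 were 45.7% and 49.5%. Along 25 bins of 100 kb, the median lay between -0.12 and 0.05 with all rats, below 0 in 20 bins. It lay between -0.11 and 0.10 without sham rat 5, below 0 in 17 bins. In the uppermost 500 kb, 32.8% of 137 tested regions were above 0, or 34.8% without sham rat 5. None was called there in either set, where 0.266% and 0.792% of all tested regions were. The median was -0.08 there and -0.02 in the lowest 500 kb with all rats, and -0.07 and -0.09 without sham rat 5, so the order of the ends depended on this rat.

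The 4 regions that were both called and free of overlap between groups are given in full. In all, values did not overlap in 7 tested regions of the block (0.959%), where 0.502% of all tested regions did not overlap. Of these 7, 4 were higher in TBI rats (0.274% of all tested regions) and 3 were lower (0.228% of all tested regions). Without sham rat 5 the number was 16 (2.19%), where 1.55% of all tested regions did not overlap, with 9 higher (0.808% of all tested regions) and 7 lower (0.741% of all tested regions). Leaving out any 1 of the 10 rats raised the number, to between 10 and 20, and groups with fewer rats overlap less easily.

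Region 2, at chr9:105863715-105865440, was higher in TBI rats. The values in sham rats 1 to 5 were 4.09, 3.01, 3.27, 3.68 and 5.15 CPM. Those in TBI rats 1 to 5 were 6.15, 6.13, 6.31, 6.65 and 5.23 CPM. The groups did not overlap, but sham rat 5 and TBI rat 5 nearly met. The log2 fold change was 0.67 ± 0.16 (SE), or 0.80 ± 0.16 without sham rat 5, from 39 to 125 tags per rat.

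Region 3, at chr9:105891377-105892969, was lower in TBI rats. Sham rats 1 to 5 had 6.95, 9.19, 10.6, 8.78 and 7.66 CPM. TBI rats 1 to 5 had 3.23, 3.90, 5.50, 4.30 and 5.64 CPM. Every sham rat was above every TBI rat, and sham rat 5 lay inside the range of the other sham rats. The log2 fold change was -0.92 ± 0.17, or -0.96 ± 0.16 without sham rat 5, from 41 to 201 tags per rat.

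Region 4, at chr9:105962005-105962790, was the weakest of the 4 and higher in TBI rats. In order of rat number, the sham group had 0.982, 0.232, 0.475, 0.494 and 0.949 CPM. The TBI group had 1.58, 1.08, 1.51, 1.15 and 1.14 CPM. Sham rats 1 and 5 came close to the lowest TBI rats, and the values rest on 3 to 30 tags per rat. The log2 fold change was 1.05 ± 0.36, or 1.26 ± 0.36 without sham rat 5. It was no longer called when any 1 of sham rats 2, 3 and 4 or of TBI rats 1, 3, 4 and 5 was left out.

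Region 9, at chr9:106455263-106456752, was lower in TBI rats. The values of sham rats 1 to 5 were 4.25, 3.40, 5.54, 4.06 and 7.12 CPM. Those of TBI rats 1 to 5 were 1.97, 1.30, 1.56, 2.18 and 3.26 CPM. The highest TBI value, of rat 5, lay just under the lowest sham value, of rat 2. The log2 fold change was -1.23 ± 0.24, or -1.06 ± 0.21 without sham rat 5, which had the highest value of all rats.

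The remaining 5 called regions had groups that overlapped, and were named after their values were seen. Region 8, at chr9:106440193-106441328, was higher in TBI rats. Its sham rats had 4.01, 5.87, 4.49, 7.13 and 5.49 CPM, and its TBI rats 7.73, 8.23, 8.88, 6.25 and 8.13 CPM. Only sham rat 4 and TBI rat 4 crossed, and the log2 fold change was 0.53 ± 0.17, or 0.54 ± 0.16 without sham rat 5.

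Region 1, at chr9:105415276-105415673, ranged from 0.736 to 2.43 CPM in the sham group and from 0.315 to 1.03 CPM in the TBI group (log2 fold change -1.08 ± 0.36, or -1.20 ± 0.34 without sham rat 5). Region 5, at chr9:106291944-106292556, ranged from 1.39 to 2.03 CPM in the sham group and from 0.315 to 1.55 CPM in the TBI group (-0.98 ± 0.32, or -0.90 ± 0.31). Region 6, at chr9:106347458-106348408, ranged from 0.926 to 2.85 CPM in the sham group and from 0.287 to 1.10 CPM in the TBI group (-1.34 ± 0.37, or -1.11 ± 0.35). In each of these 3 regions the groups shared part of their range, and the call held without sham rat 5.

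Region 7, at chr9:106368625-106369772, rested on 1 library. Sham rats 1 to 5 had 0.573, 0.695, 0.475, 0.768 and 3.12 CPM. TBI rats 1 to 5 had 0.394, 0.505, 0.202, 0.516 and 0.414 CPM. Sham rat 5 held 46 tags, compared with 4 to 14 in the other 9 rats. Without it the region fell under the tag filter and was not tested.

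**Figure D2:**
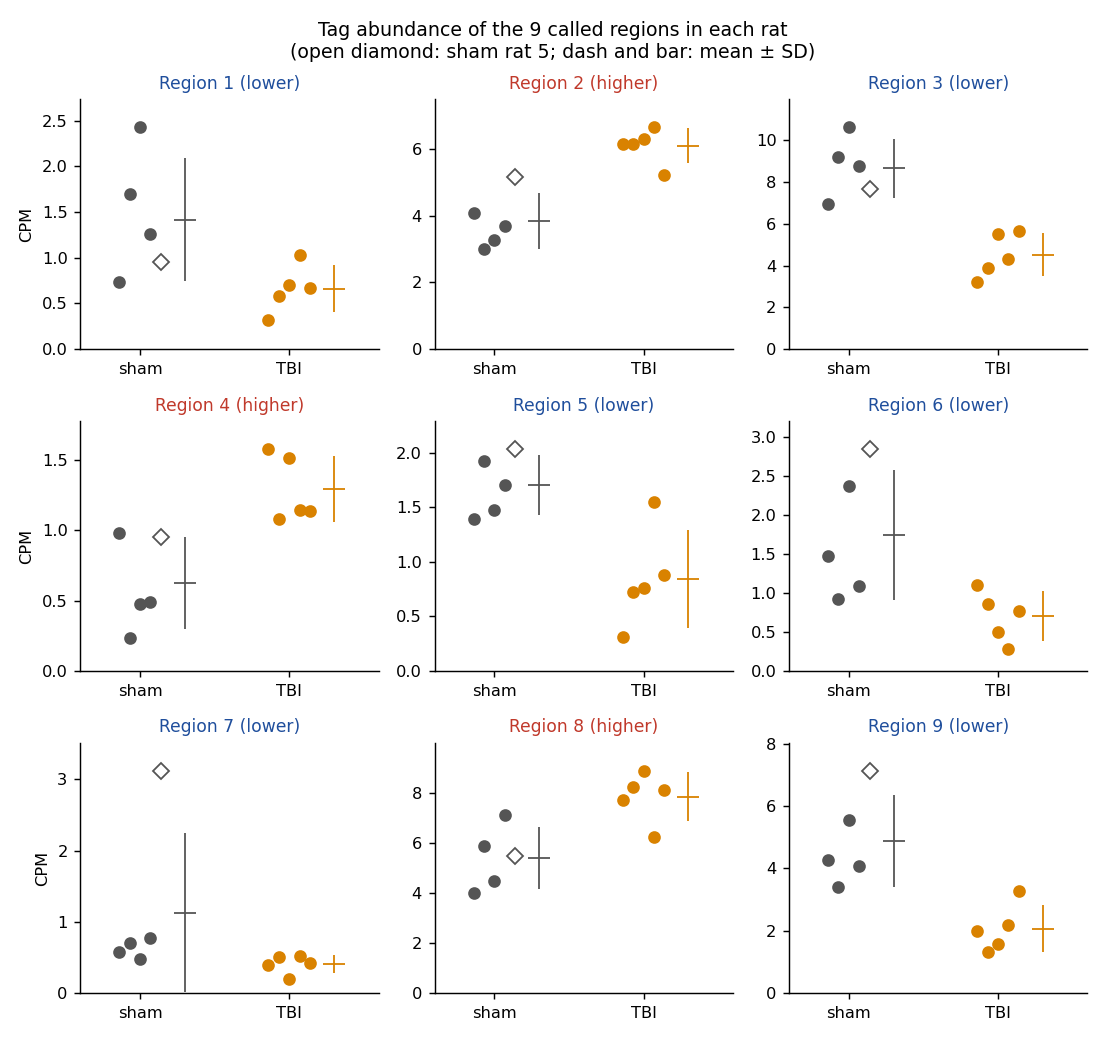
CPM of the 9 called regions in each rat (vertical axes, from 0), grey for sham and orange for TBI rats, with a dash and bar for the mean ± SD of each group and an open diamond for sham rat 5. Sham and TBI points are apart in regions 2, 3, 4 and 9, and in region 7 the diamond at 3.12 CPM stands above the other 9 rats.

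The 6 regions called only without sham rat 5 were also named after their values were seen. In 5 of them TBI rats were higher, and the largest shift was at chr9:105870752-105871444. There, sham rats 1 to 5 had 0.573, 0.540, 0.264, 0.713 and 2.71 CPM. TBI rats 1 to 5 had 1.50, 1.23, 1.26, 1.95 and 1.35 CPM. Sham rats 1 to 4 lay below every TBI rat and sham rat 5 above every one, so that the log2 fold change was 0.61 with this rat and 1.48 when it was left out.

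In 3 of the other higher regions sham rat 5 also had the highest sham value. There the log2 fold change went from 0.74 to 1.37 at chr9:105419887-105420398, from 0.75 to 1.20 at chr9:105670592-105671063 and from 1.00 to 1.21 at chr9:106404420-106404776. In the remaining higher region it went from 0.68 to 0.79, at chr9:105506806-105507600. At chr9:105531724-105532066, the only lower region of the 6, it went from -1.09 to -1.10, nearly the same size.

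The nearest neighbours of the called regions differed less between groups. Called regions were picked for their p, so a smaller difference beside them follows from the choice. The 9 called regions had 18 nearest tested neighbours at gaps of 0.131 to 4.649 kb, and none was called, where 0.266% of all tested regions were. Their log2 fold changes lay between -0.28 and 0.52, and 12 of the 18 had the sign of the called region beside them. These were 4 of 6 beside higher and 8 of 12 beside lower regions, where 42.6% of the block's tested regions were above 0. Region 2 had a neighbour 0.19 kb away, at chr9:105861904-105863525, which had 6.14 ± 0.776 CPM in sham and 6.11 ± 0.905 CPM in TBI. Region 3 had a neighbour about 1 kb away, at chr9:105887349-105890374, with 16.8 ± 4.02 CPM in sham and 18.0 ± 1.62 CPM in TBI rats. The neighbour with the highest log2 fold change of the 18 lay 3.47 kb from region 8, at chr9:106444798-106445471, and went the same way. It had 1.28 ± 0.298 CPM in sham and 1.84 ± 0.138 CPM in TBI rats.

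Called regions of opposite direction were neighbours among the called regions, under 50 kb apart, at 2 places. Regions 2 and 3 were 25.9 kb apart, with 8 tested regions between them that had log2 fold changes of -0.42 to 0.61 and were not called with all rats. The highest of them, at chr9:105870752-105871444, was called as higher in TBI rats without sham rat 5 (log2 fold change 1.48). The log2 ratio of region 2 to region 3 was -0.77, -1.61, -1.70, -1.26 and -0.57 in sham rats 1 to 5. In TBI rats 1 to 5 it was 0.93, 0.65, 0.20, 0.63 and -0.11. Region 3 was thus the stronger of the pair in every sham rat and in 1 TBI rat, and the means were -1.18 ± 0.50 and 0.46 ± 0.41 (SD, n = 5 each). The difference was 1.64, or 1.79 without sham rat 5.

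Regions 8 and 9 were 13.9 kb apart, with 5 tested regions between them that had log2 fold changes of -1.20 to 0.52 and were not called. The lowest, at chr9:106450375-106452791, was nearly as low as region 9 with all rats, and stood at -0.38 without sham rat 5, which had 4.61 CPM there, compared with 0.491 to 1.47 CPM in the other 9 rats. The log2 ratio of region 8 to region 9 was -0.09, 0.79, -0.30, 0.81 and -0.37 in sham rats 1 to 5. In TBI rats 1 to 5 it was 1.97, 2.66, 2.51, 1.52 and 1.32. The means were 0.17 ± 0.59 and 2.00 ± 0.59, a difference of 1.83, or 1.69 without sham rat 5. Within a pair the library size cancels, so these ratios do not depend on a scaling by a single factor per library. A scaling that varies with the strength of a region would not cancel. The pair of regions 2 and 3 and that of regions 8 and 9 were picked because their regions were called in opposite directions. That the groups separate on the ratio follows from the choice.

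**Figure D3:**
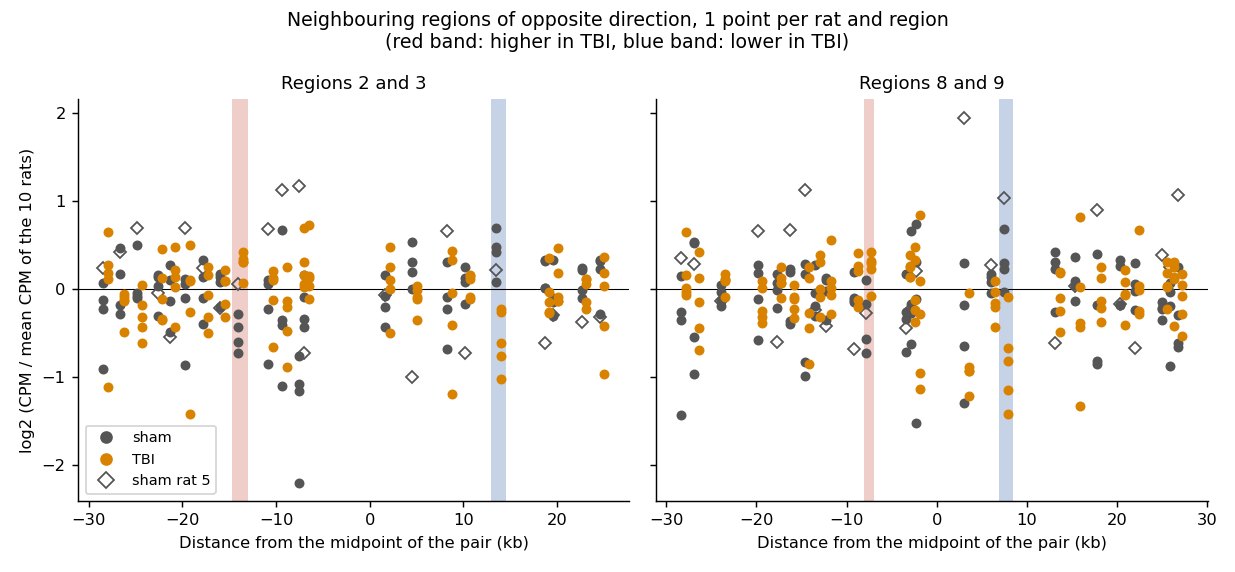
Log2 of each rat's CPM over the mean of the 10 rats (vertical axis) for tested regions around regions 2 and 3 (left) and 8 and 9 (right), against the distance from the midpoint of the pair in kb, with 1 point per rat and region. Orange TBI points lie mostly above the grey sham points in the red bands, below them in the blue bands, and overlap with them in the regions between, of which 1 in the right panel has a log2 fold change of -1.20 with sham rat 5 (open diamonds) at the top.

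The rats that lay closest to the other group differed from region to region. The rat of its group nearest to the other group was sham rat 1 in 4 of the 9 regions and sham rat 2 in 2, and among TBI rats it was rat 4 in 4 and rat 5 in 3. The farthest from the other group was sham rat 5 in 4 regions and TBI rat 1 in 4. Sham rat 5 was thus as often at the far side of the sham group as TBI rat 1 was of its own.

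Across all 730 regions, rats of the same group were on average about as alike as rats of different groups. The correlation of log2 CPM was 0.871 ± 0.0846 over the 20 pairs of rats within a group and 0.869 ± 0.0759 over the 25 pairs between groups (SD). Without sham rat 5 it was 0.909 ± 0.0227 over 16 pairs and 0.904 ± 0.0184 over 20 pairs. Pairs share rats, so no test was made.

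Rats differed in how their values ran from weak to strong regions. When tested regions were split into quartiles by mean CPM, sham rat 5 had a median log2 ratio to the other 9 rats of 0.47 in the weakest and -0.31 in the strongest quartile. Sham rat 2 leaned the same way, from 0.21 to -0.04, and sham rat 4 the opposite way, from -0.18 to 0.18. The tag filter and the quartiles include each rat's own tags, so weak regions could be tested because of high values in sham rat 5. How far this raised its 0.47 was not tested. Sham rat 5 had the highest value of the 10 rats in 208 of 730 regions (28.5%) and the lowest in 171 (23.4%), compared with 35 to 94 and 39 to 97 for each other rat. By share of library tags over all members, tested or not, it was highest in 31.7% of the block. This share was 41.2% on the rest of chromosome 9 and 39.8% over all regions, so the trait was not particular to the block. The share of each library's tags that fell in the block was 0.216% in sham rat 5, 0.237% ± 0.0022 in the other sham rats (n = 4) and 0.235% ± 0.0039 in TBI rats (n = 5).

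**Figure D4:**
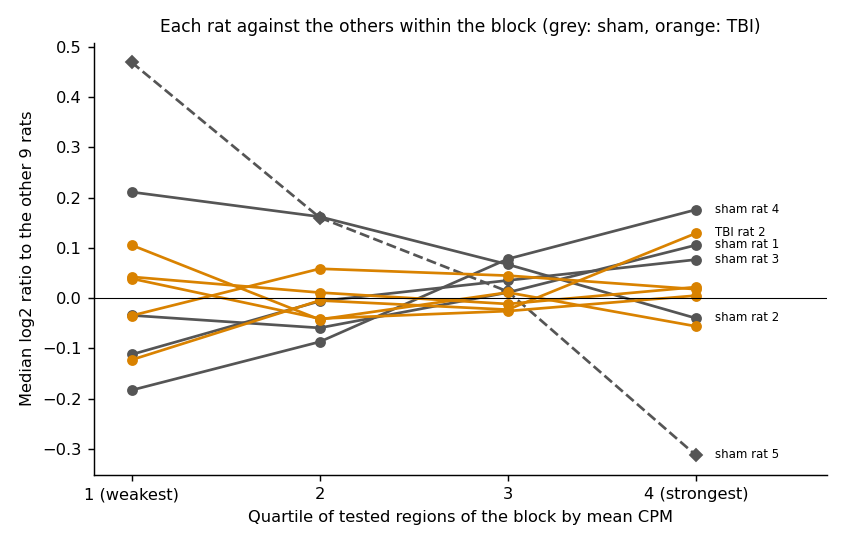
Median log2 ratio of each rat's CPM to the mean of the other 9 rats (vertical axis) in quartiles of the block's tested regions by mean CPM, with grey lines for sham and orange lines for TBI rats. Sham rat 5 (dashed) runs from 0.47 in the weakest to -0.31 in the strongest quartile, and the other rats stay between -0.18 and 0.21 at these ends. The tag filter and the quartiles include the tags of the rat shown.

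Once the mean of each group was removed, 1 component took up 45.7% of the remaining variance over the block's regions. Sham rat 5 had a loading of -0.76 on it and sham rat 4 a loading of 0.46. Without sham rat 5, the leading component took 30.0%, with sham rat 2 at -0.72, sham rat 4 at 0.42 and TBI rat 2 at 0.38. These rats also leaned apart between weak and strong regions, but the match was not complete. Without sham rat 5, sham rat 3 had a loading of -0.01, although it leaned from -0.11 in the weakest to 0.08 in the strongest quartile. Sham rat 1 had a loading of 0.31 and leaned from -0.03 to 0.11. Whether the component follows strength was not tested, nor was the part of capture in it.

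Neighbouring regions of the block were about as alike across rats as neighbours elsewhere. Over 23250 pairs of tested regions within 100 kb, the mean absolute r was 0.366, compared with 0.370 and 0.387 in the stretches below and above, 0.364 on the rest of chromosome 9 and 0.363 over all autosomes. Without sham rat 5 it was 0.337 in the block and 0.335 on the autosomes. With all rats and pairs of the block within 1 Mb the value was 0.367, so it is not read as a trait of close neighbours. The median SD of log2 CPM within groups was 0.35 in the block and 0.38 over all tested regions, or 0.31 and 0.33 without sham rat 5. Both measures in the block were close to those elsewhere.

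In each of the 3 most variable members sham rat 5 had the highest value of the 10 rats. At chr9:106047058-106047913 the within-group SD of log2 CPM was 1.39, and sham rats 1 to 5 had 0.491, 1.16, 1.16, 0.604 and 3.32 CPM. TBI rats 1 to 5 had 2.05, 0.00, 0.656, 0.860 and 2.17 CPM there, with 0 tags in TBI rat 2, which allows up to 3 tags by counting error alone, so that the TBI group was also widely spread. Sham rat 5 also had the highest value at chr9:106490984-106492080 (2.92 CPM, compared with 0.110 to 1.39 CPM in the other 9 rats) and at chr9:106825828-106827040 (3.59 CPM, compared with 0.110 to 0.880 CPM). It held 43 of 136 and 53 of 127 tags there, and without it both regions fell under the tag filter and were not tested. The 3 members were picked for their spread within groups, which an outlying rat raises. No member of the block had 0 tags in at least 2 rats and 20 or more in at least 2 others, where 188 of all 716492 regions (0.0262%) did.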

How the data were processed

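Methyl-captured DNA of 5 sham and 5 TBI rats was sequenced as single reads of 36 bp after shearing to 200 to 300 bp. By the labels and methods, the authors aligned reads to RN4 (BWA), called regions (MACS) and merged them (bedtools), and the deposited values are unscaled tag counts for each region and rat. Regions entered the matrix because libraries differed there, so a library unlike the others adds regions. Whether positions count from 0 or 1 is not stated, and they are given as deposited. All 10 columns were used (0 others were present), matched by rat number. No 2 columns were identical. The study's methods give fewer controls for the TBI model than the 5 sham libraries deposited, and which library, if any, the authors left out is not stated in the sources used here.

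The block, its bounds and the comparisons were chosen with earlier results of these data known. Regions with a tag sum at or above the 50th percentile (117 tags) were tested over the whole genome by the quasi-likelihood test of edgeR 4.0.16 (R 4.3.3), with TMM normalization, a trended dispersion and no covariates, and p-values were adjusted over all of them. The F statistic gave the standard errors. CPM values were scaled by TMM, and log2 CPM used a prior count of 2. Similarity of neighbours was computed in Python 3.11.15 with numpy 2.4.6. The fit and the similarity measure were tested on simulated data. Each CPM carries the counting error of its tags, and reads without molecular identifiers are not independent molecules, so limits from counts cover counting error only.

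The regions to name were up to 5 in each direction with the smallest p, called and free of overlap (4 qualified), the 3 with the highest mean CPM, the 3 with the largest within-group SD, regions absent in some rats and strong in others (0 found), and the regions at the edges. Other named regions were chosen after their values were seen. Alternatives were DESeq2 1.42.0 size factors and Wald test, total tags, loess offsets (span 0.3), other filters, thresholds, tests and bounds, and leaving out each rat. Sham rat 5 left out together with loess offsets was added after seeing the data. Gene names and sequence were not reported, since the tables at hand are of another assembly.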

Additional observations from a re-analysis of the deposited data

Results flagged for a closer look

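Sham rat 5 lay far from the other 4 rats of its group in 5 of the 40 sets of 5 values examined. Chance flags about 1 in 20 sets, but several sets were of regions picked for their spread or after their values were seen, so the count cannot be compared with that rate. Its CPM was 3.32 at chr9:106047058-106047913 (the next sham rat had 1.16), 3.12 at chr9:106368625-106369772 (the next had 0.768) and 3.59 at chr9:106825828-106827040 (the next had 0.849). The share of its tags in the block was 0.216% (the next sham rat had 0.234%), and its mean r with the other rats over the tested regions was 0.723 (the next had 0.866). All 5 sets were of sham rat 5, and why this library differs was not tested.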

How the results depend on the processing

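Of the 52 values of the 4 regions named by p under other scalings and with each rat left out, 45 kept their direction and their call, 0 turned direction, and 7 lost the call, all at region 4 (chr9:105962005-105962790), with p from 0.0115 to 0.0236 by edgeR's quasi-likelihood test. The number of called regions depended on the threshold, the filter and single rats. With no filter beyond 1 tag it was 20, of which 16 were lower, and 0.535% of all regions so tested were called. The median log2 fold change was then -0.0196 and the similarity of neighbours 0.403. With at least 10 tags in every rat the number of called regions was 5, of which 2 were lower. At p under 0.05 it was 33 (9 higher and 24 lower), where 2.45% of all tested regions had such a p. At p under 0.001 it was 3 (1 higher and 2 lower). Leaving out each rat in turn gave between 5 and 21 called regions, between 1 and 8 higher and between 3 and 16 lower, between 10 and 20 regions without overlap, a median between -0.0437 and -0.0231 and a similarity between 0.337 and 0.393. The count moved by over 1.5 times to 14 without sham rat 1 (3 higher, 11 lower), 21 without sham rat 4 (5 higher, 16 lower) and 14 without sham rat 5 (8 higher, 6 lower), and to 5 without each of TBI rats 2, 3 and 5. Without sham rat 3, 1 region was higher. Without TBI rat 2, 3 regions were lower, and without TBI rats 3 and 5, 1 region was higher. With sham rat 5 left out and loess offsets, 14 were called (8 higher), 14 did not overlap, the median was -0.0113 and the similarity 0.330. Loess offsets alone gave a similarity of 0.342, and keeping the group means 0.348. Groups with fewer rats overlap less easily, so a rise in regions without overlap is not read as a trait of the rat left out. The cause of the other differences was not tested. Without sham rat 5 the shares over all tested regions moved too, from 0.266% to 0.792% called and from 0.502% to 1.55% without overlap. For the remaining settings the share over all tested regions is not given here, so those counts are not read as a trait of the block. DESeq2 size factors gave 9 called regions, total tags 8 and loess offsets 11, and no scaling moved the median of all regions by over 0.02. Few tags limit the weaker regions. No paired analysis was possible because each rat number occurs in 1 group only.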

Other observations

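The 343 members below the filter were also uneven between rats. They had a median of 64 tags summed over the 10 rats, and 1 had no tag in any rat. Sham rat 5 had the highest CPM in 200 of those with tags (58.5% of 342), and the next rat, sham rat 2, in 35, and sham rat 5 held 23.4% of all their tags. With no filter beyond 1 tag, 10 of the 342 were called, where 0.535% of all regions so tested were called. All 10 were lower in TBI rats. They had between 27 and 103 tags in sum, with 8 to 54 tags in sham rat 5 and 0 to 9 in each TBI rat, and sham rat 5 had the highest value in 7 of them. These calls were not used.

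At the lower bound, the last region outside the block (chr9:104999930-105000314) had 25 tags in sum and the first inside (chr9:105001045-105001377) had 12, of which sham rat 5 held 15 and 10. At the upper bound, the last region inside (chr9:107498900-107499910) had 3.59 ± 0.346 CPM in sham and 3.07 ± 0.542 CPM in TBI rats, and the first outside (chr9:107500767-107501436) had 1.26 ± 0.605 and 0.991 ± 0.342 CPM (SD, n = 5 each). Their log2 fold changes were -0.23 ± 0.17 and -0.33 ± 0.35 (SE), so the regions on either side of the upper bound had similar small values.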
